A study of Homo sapiens with 8 samples.

Results

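Most of the genes described here encode core proteins of the spliceosomal small nuclear ribonucleoproteins (snRNPs), and some encode relatives that work outside them. All were taken by symbol, from the genes named SNRP, LSM, SF3A, SF3B or PRPF with a letter or number. Of the 19414 genes in the files, 46 are described. They were sorted by the complex in which the protein works: 8 in the Sm ring, 4 in the U1 snRNP, 11 in the U2 snRNP, 8 in the U5 and U4/U6.U5 tri-snRNP or the B complex that forms from it, 2 PRPF proteins of the catalytic stage, 8 in the LSm rings, 2 LSm proteins of the U7 snRNP and 3 other proteins with an LSm domain. RNA-seq was done on U2OS, an established human osteosarcoma line, in 4 genotypes with 2 libraries each. MYC cells overexpress MYC, Zab cells carry Zab, Zab+MYC cells have both changes, and WT cells have neither. The Zab construct, the promoters that drive it and MYC, and whether each genotype is a clone are not given in the sources used here. Beside its labels, the MYC mRNA stood at 1237 and 1290 CPM in MYC cells, 230 and 194 in Zab, 707 and 705 in Zab+MYC, and 72.6 and 94.8 in WT cells. ADAR stood at 247 and 230 CPM in MYC cells, 6003 and 6198 in Zab, 1068 and 1018 in Zab+MYC, and 264 and 270 in WT cells.

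The spliceosome removes introns from pre-mRNA. Each of its snRNPs is a small nuclear RNA with a ring of Sm or LSm proteins and proteins of its own. The U1 snRNP reads the start of an intron, the U2 snRNP its branch site, and the U4/U6.U5 tri-snRNP brings the RNAs that form the catalytic centre. The U7 snRNP does not splice, but cuts the ends of histone mRNAs, and a cytoplasmic LSm ring serves mRNA decay. MYC is a transcription factor that raises many growth genes, and in mouse lymphoma models it is known to raise genes of snRNP assembly such as PRMT5.

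Levels are given in CPM, a gene's tags scaled to a common library size after TMM scaling. TMM is meant to remove differences in RNA composition between libraries. Each fold change was computed from log2(CPM + 2) and is smaller than the true ratio for genes near 0. The libraries held 686991.5 to 1326166.5 exon tags, so that a member at 20 CPM rests on few tags. A gene was called higher or lower at an adjusted p under 0.05 in limma, adjusted over all 9673 genes that passed the filter on low values. Of the 46 members 45 passed it, and PRPF18 did not. The 2 libraries of each genotype differed by about as much as counting alone gives, with a chi-square per degree of freedom of 1.01 in MYC, 1.01 in Zab, 1 in Zab+MYC and 1.03 in WT (p = 0.34, 0.21, 0.49 and 0.022). Nothing in the labels says that they came from separate cultures, and 2 libraries made from 1 RNA would look alike in this way. The p-values below therefore measure little more than counting error and not the variation between cultures. Osteosarcoma or mesenchymal markers summed to 5307 to 5462 CPM in MYC, 8474 to 8890 in Zab, 7614 to 7740 in Zab+MYC and 10080 to 10270 in WT libraries, mostly VIM, while TWIST1 was at 0 tags and COL1A2 under 1 CPM in every library. Epithelial markers, mostly KRT8 and KRT18, summed to 1085 to 1138 CPM in MYC, 1529 to 1697 in Zab, 2152 to 2172 in Zab+MYC and 1592 to 1666 in WT. The 4 blood cell markers summed to at most 2.92 CPM in any library.

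In MYC cells, against WT, 22 of the 45 tested members were called higher, 2 were called lower and 21 were not called, beside 27.8% of all tested genes called higher and 30.4% called lower. Their median log2 fold change was 0.45, and that of all tested genes was -0.04. Summed over the 46 members, the level was 7799 and 7912 CPM in MYC libraries, 5789 and 5677 in Zab, 6790 and 6930 in Zab+MYC, and 5023 and 5223 in WT. The MYC libraries were the highest and the WT libraries the lowest, with no overlap between genotypes. DESeq2, run as a second tool, kept 18 of the 22 higher calls and both lower ones. Of all 9673 genes it called 2023 higher and 1974 lower, against 2692 and 2941 in limma. MYC had the highest mean for 35 of the 46 members, and WT had the lowest for 23. In bulk RNA, fewer cells of a kind and less RNA per cell cannot be told apart, and CPM values show shares of the mRNA and not amounts per cell.

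**Figure D1:**
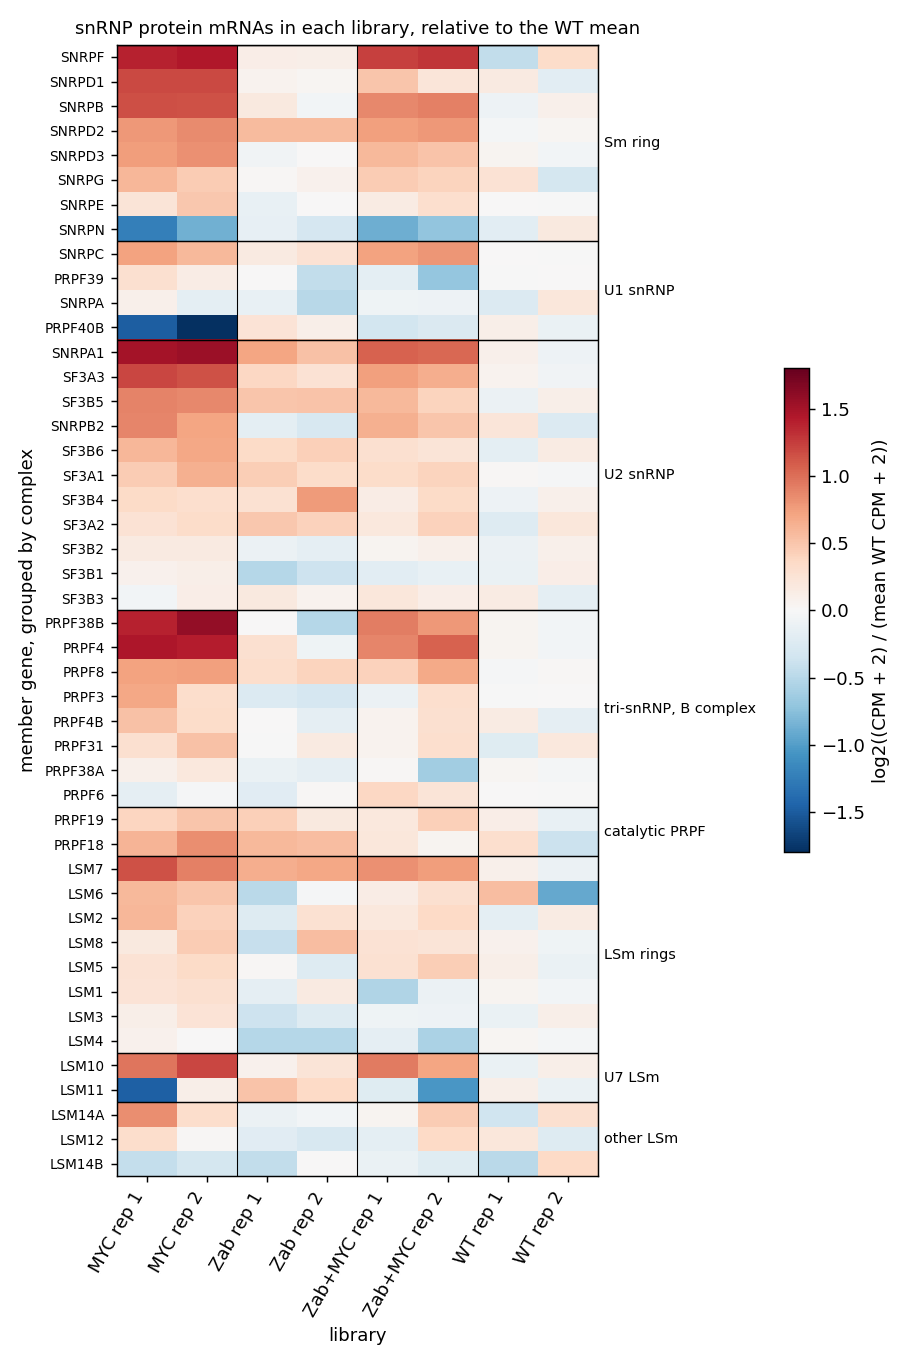
Level of each of the 46 members (down the page, grouped by complex) in each of the 8 libraries (columns), as log2 of CPM + 2 over the mean WT CPM + 2, red above and blue below WT. The MYC columns are red over most of the Sm, U2 and tri-snRNP genes, with SNRPN and PRPF40B blue, and the Zab+MYC columns are paler for many of the same genes.

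The Sm ring, which wraps the U1, U2, U4 and U5 RNAs, had 6 members higher and 1 lower in MYC cells, and SNRPE was not called. Over all tested genes 27.8% were called higher and 30.4% lower. SNRPB, the SmB protein, at chromosome 20 from 2442288 to 2451435 (hg19), had 940 and 927 CPM in MYC libraries, against 392 and 444 CPM in WT. Both MYC libraries were far above both WT libraries, a 2.23-fold difference (log2 1.16 ± 0.07 SE, limma adjusted p = 2.6e-24). SNRPD1, the SmD1 protein, had 128 and 128 CPM in MYC, against 61.8 and 48.2 in WT, and was 2.30-fold higher (log2 1.20 ± 0.18, limma adjusted p = 1.3e-08). SNRPF, the SmF protein, had 25.2 and 26.2 CPM in MYC, against 5.68 and 11.1 in WT, and was 2.76-fold higher (log2 1.46 ± 0.35, limma adjusted p = 0.00025). The MYC libraries were alike and the WT libraries differed, and SNRPF had 15 tags in WT. SNRPD2, the SmD2 protein and the most abundant member per length, had 1145 and 1206 CPM in MYC, against 650 and 681 in WT, and was 1.76-fold higher (log2 0.82 ± 0.05, limma adjusted p = 2.4e-22). SNRPD3 was 1.73-fold and SNRPG 1.47-fold higher, and SNRPE had a log2 fold change of 0.35 (limma adjusted p = 0.081, and 0.041 and 0.05 without Zab replicate 1 or Zab+MYC replicate 2, where it was called). The SNRPG call was lost without WT replicate 2 (log2 0.28, limma adjusted p = 0.15). SNRPF overlaps the coding gene CCDC38 on the opposite strand, which had 0 tags in every library, and SNRPD3 overlaps GUCD1, which was lower in MYC (log2 -1.14, limma adjusted p = 6.8e-07).

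SNRPN was the Sm gene that went the other way. It encodes SmN, a close relative of SmB that is best known from brain and is expressed from an imprinted locus. At chromosome 15 from 25101659 to 25223870 (hg19, the span of the transcripts counted), it had 81.3 and 106 CPM in MYC libraries, against 170 and 219 CPM in WT. Both MYC libraries were below both WT libraries, and the gene was 2.05-fold lower (log2 -1.04 ± 0.14, limma adjusted p = 8.3e-10). SNURF, the upstream reading frame of the same transcripts, had nearly the same values, 81.3 and 106 CPM in MYC and 170 and 219 in WT, so the counts do not separate the pair. The protein-coding parts of SNRPB and SNRPN are alike, and reads that fit both could be assigned to either. SNRPN was counted on 5 different transcripts across the libraries. The 3 neuronal marker genes summed to 12.6 to 18.2 CPM in MYC, 21.4 to 38.0 in Zab, 24.3 to 27.6 in Zab+MYC and 23.8 to 29.7 in WT, and their part in the SNRPN difference was not tested.

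In the U1 snRNP, 1 of 4 members was higher and 1 was lower in MYC cells. Both counts are near the shares of all tested genes, 27.8% called higher and 30.4% called lower. SNRPC, the C protein of the U1 snRNP, which steadies pairing with the start of the intron, had 235 and 213 CPM in MYC, against 142 and 141 in WT, and was 1.57-fold higher (log2 0.65 ± 0.11, limma adjusted p = 6.2e-07). Both MYC libraries were above both WT libraries. PRPF40B, a relative of the yeast U1 protein Prp40, at chromosome 12 from 50017197 to 50038452 (hg19), had 13.1 and 9.91 CPM in MYC, against 43.5 and 37.1 in WT. It was the member with the largest fall, 3.15-fold lower (log2 -1.65 ± 0.27, limma adjusted p = 1.6e-07), from 14 and 12.5 tags in MYC and 34.5 and 35 tags in WT. FMNL3, a formin gene that overlaps PRPF40B on the opposite strand, was also lower in MYC (log2 -0.89, limma adjusted p = 0.00031), and the sources used here do not say whether the counting used strand. PRPF40B was counted on 3 different transcripts. SNRPA, the A protein of the U1 snRNP, which binds a stem of the U1 RNA, had 142 and 118 CPM in MYC, against 112 and 155 in WT, and PRPF39 had 67.7 and 60.7 CPM, against 54.9 and 55.1. Neither was called (limma adjusted p = 0.9 and 0.39).

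**Figure D2:**
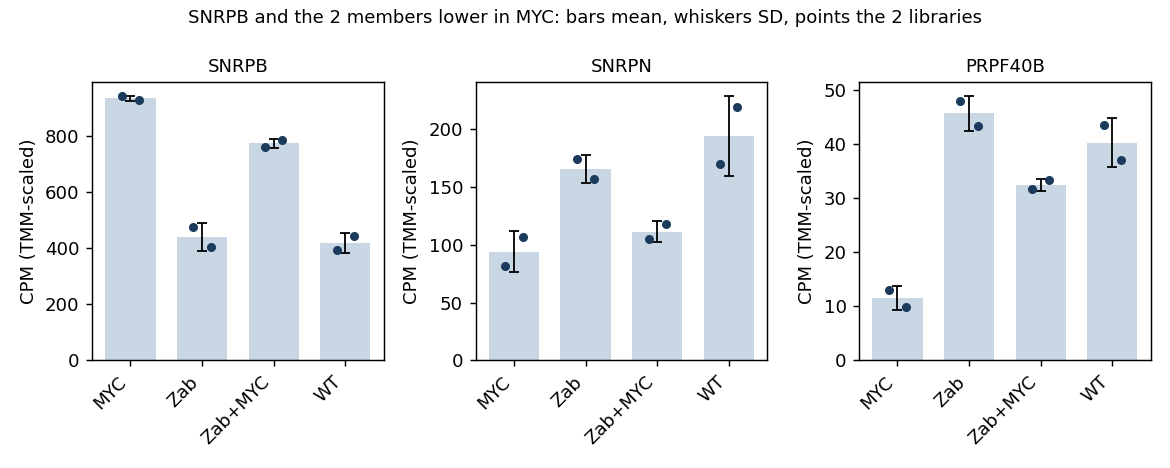
Level in CPM (y axes, from 0) of SNRPB, its relative SNRPN and PRPF40B in the 4 genotypes, with bars for the mean, whiskers for the SD and points for the 2 libraries. SNRPB is highest in MYC, where SNRPN and PRPF40B are lowest.

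The U2 snRNP, with the SF3A and SF3B complexes that hold the branch site, had 7 of 11 members higher and 0 lower in MYC cells. All 11 log2 values were above 0. Of all 9673 tested genes, 27.8% were called higher, 30.4% were called lower and 4675 had a log2 value above 0. SNRPA1, the A' protein of the U2 snRNP, which binds the U2 RNA with the B'' protein, at chromosome 15 from 101821715 to 101835453 (hg19), had 288 and 295 CPM in MYC, against 107 and 93.8 in WT. That was the largest rise of any member, 2.87-fold (log2 1.52 ± 0.12, limma adjusted p = 2.9e-19). SF3A3, a subunit of SF3A, had 337 and 323 CPM in MYC, against 151 and 138 in WT, and was 2.26-fold higher (log2 1.18 ± 0.11, limma adjusted p = 5e-16). SF3B5, a small subunit of SF3B, had 240 and 236 CPM in MYC, against 119 and 138 in WT, and was 1.84-fold higher (log2 0.88 ± 0.12, limma adjusted p = 5.9e-10). In all 3 genes the replicates of a genotype lay close together and the genotypes were well apart. SF3B6, which lies beside the branch adenosine, had 122 and 132 CPM in MYC, against 71.3 and 89.5 in WT (log2 0.65 ± 0.15, limma adjusted p = 0.00013), and SF3A1 had 248 and 281 CPM, against 183 and 177 (log2 0.55 ± 0.10, limma adjusted p = 5.1e-06). SNRPB2, the B'' partner of SNRPA1, was 1.76-fold higher. SF3B2 was 1.12-fold higher, a call that was lost without MYC replicate 1, MYC replicate 2 or WT replicate 1 (limma adjusted p = 0.053, 0.071 and 0.42).

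SF3B1, the large scaffold of SF3B that is often mutated in blood cancers, had 196 and 199 CPM in MYC, against 170 and 200 in WT. SF3B3, a scaffold of the same complex, had 251 and 283 CPM, against 290 and 231. The libraries of the 2 genotypes overlapped for both genes, and neither was called (log2 0.10 and 0.04, limma adjusted p = 0.49 and 0.74). SF3A2 and SF3B4 were not called either (log2 0.31 and 0.32, limma adjusted p = 0.075 and 0.11), though SF3A2 was called without WT replicate 2 (log2 0.53, limma adjusted p = 0.0094) and without any 1 Zab or Zab+MYC library (0.036 to 0.048).

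The tri-snRNP and B complex genes had 4 of 8 members higher and 0 lower, beside 27.8% and 30.4% of all tested genes. PRPF38B, a relative of the B complex protein PRPF38A, had 146 and 166 CPM in MYC, against 56.1 and 52.4 in WT, and was 2.80-fold higher (log2 1.49 ± 0.17, limma adjusted p = 1.2e-11). PRPF4, a U4/U6 protein, had 216 and 210 CPM in MYC, against 80.8 and 74.7 in WT, and was 2.70-fold higher (log2 1.43 ± 0.14, limma adjusted p = 1.7e-14). Both genes stood well apart between the genotypes, while PRPF38A, with 52.3 and 56.3 CPM in MYC and 50.5 and 47.7 in WT, was not called (limma adjusted p = 0.6). Across the libraries PRPF38B was counted on 7 different transcripts and PRPF4 on 4. Of the other members higher in MYC, SNRPG was counted on 3, and SF3A3 and SNRPD3 on 2 each. PRPF8, the large protein at the heart of the catalytic centre, had 519 and 526 CPM in MYC, against 312 and 318 in WT, and was 1.65-fold higher (log2 0.73 ± 0.08, limma adjusted p = 2.2e-12). PRPF31, which joins the U4/U6 and U5 parts, was 1.33-fold higher, a call lost without MYC replicate 2 or WT replicate 1 (limma adjusted p = 0.074 and 0.18). PRPF3, PRPF6 and PRPF4B, a kinase that acts on the tri-snRNP, were not called (log2 0.50, -0.09 and 0.44). Of the catalytic-stage pair, PRPF19, a ubiquitin ligase, had 55.1 and 59.5 CPM in MYC, against 45.4 and 37.6 in WT (log2 0.45, limma adjusted p = 0.056), and was called without either Zab library, either Zab+MYC library or WT replicate 1 (limma adjusted p 0.032 to 0.04). PRPF18, which acts in the second catalytic step, had 5.14 and 6.34 CPM in MYC, against 3.79 and 1.59 in WT, too few tags to test.

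Of the 8 LSm ring genes 2 were called higher and 0 lower, near the 27.8% of all tested genes that were called higher. LSM2 to LSM7 are shared between the nuclear ring on U6 RNA, completed by LSM8, and the cytoplasmic decay ring, completed by LSM1. LSM7 had 204 and 173 CPM in MYC, against 97.2 and 84.8 in WT, and was 2.05-fold higher (log2 1.03 ± 0.13, limma adjusted p = 1.2e-10). LSM2 had 54.2 and 47.6 CPM, against 30.9 and 39.2, and passed narrowly (log2 0.52 ± 0.23, limma adjusted p = 0.05 as rounded), a call lost without MYC replicate 1, MYC replicate 2 or WT replicate 1 (limma adjusted p = 0.19, 0.061 and 0.26). The other 6 were not called, with log2 values between 0.04 and 0.72. Among them, LSM1 had 35 and 36.1 CPM in MYC, against 30.3 and 28.1 in WT, and LSM8 had 14.9 and 18.6, against 13.9 and 12.2 (limma adjusted p = 0.4 and 0.45). LSM6, at 18.7 and 17.4 CPM in MYC and 18.3 and 5.30 in WT, was called without WT replicate 1 (log2 1.47, limma adjusted p = 0.0063).

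In the U7 ring, LSM10 and LSM11 stand in for SmD1 and SmD2. LSM10 had 136 and 162 CPM in MYC, against 63.7 and 74.7 in WT, and was 2.12-fold higher (log2 1.09 ± 0.15, limma adjusted p = 4.5e-09). LSM11 had 3.74 and 15.1 CPM in MYC, against 15.1 and 12.7 in WT. The 2 MYC libraries were far apart, and LSM11 was not called (log2 -0.68, limma adjusted p = 0.14) but was called lower without MYC replicate 2 (log2 -1.44, limma adjusted p = 0.011). Of the LSm-domain proteins outside the rings, LSM14A, a protein of cytoplasmic P-bodies, had 76.1 and 52.3 CPM in MYC, against 32.2 and 51.4 in WT (log2 0.61 ± 0.22, limma adjusted p = 0.016). Its lower MYC library lay only just above its higher WT library, and the call was lost without MYC replicate 1 or WT replicate 1 (limma adjusted p = 0.26 and 0.33). Its relative LSM14B had 14.5 and 15.9 CPM in MYC, against 13.9 and 26.5 in WT, and was not called (log2 -0.31, limma adjusted p = 0.44), and neither was LSM12 (log2 0.18).

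**Figure D3:**
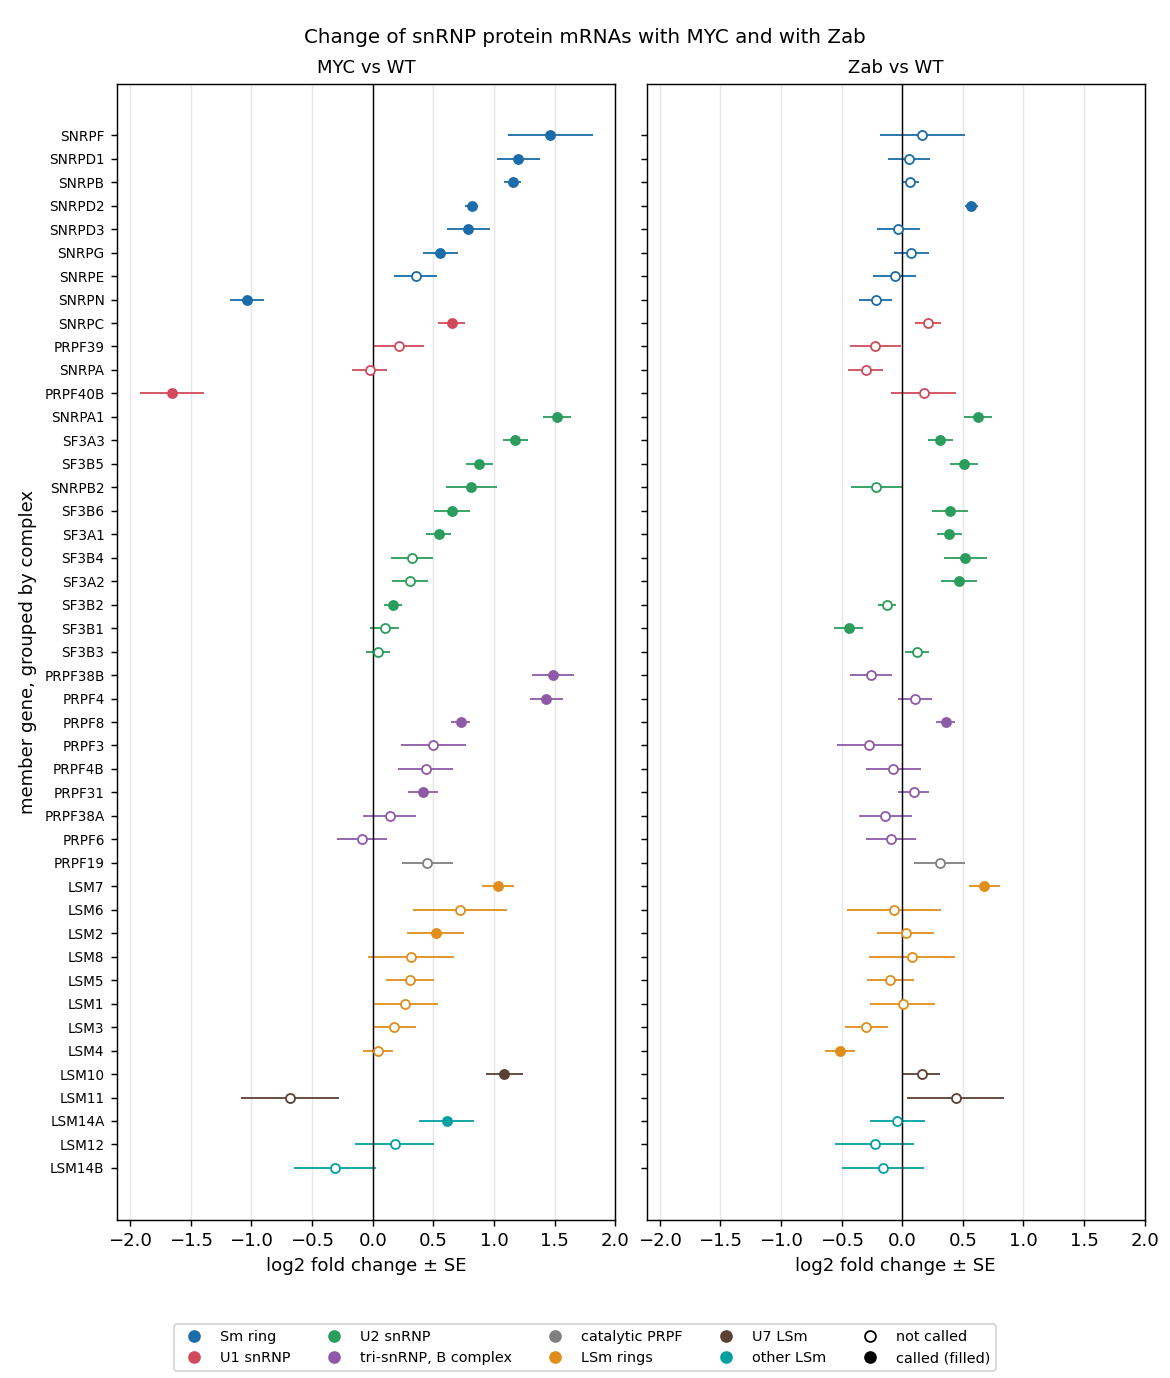
Log2 fold change (x axis, with its standard error as a bar) of the 45 tested members, coloured by complex, in MYC against WT and in Zab against WT. Filled points passed limma's test. In MYC most points lie right of 0, with SNRPN and PRPF40B at the left, and in Zab the points scatter about 0 with the U2 genes mostly to the right.

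Across the 4 genotypes the members kept very different levels per length. In CPM per kilobase of the counted transcript, SNRPD2 had 2193 in MYC, 1844 in Zab, 2102 in Zab+MYC and 1242 in WT. SNRPB followed with 873 in MYC, 411 in Zab, 723 in Zab+MYC and 391 in WT. At the other end, LSM8 had 1.36 in MYC, 1.19 in Zab, 1.28 in Zab+MYC and 1.05 in WT, on a counted transcript of 12377 bases, which was the longest of any member. Such levels depend on which transcript was counted.

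In Zab cells, against WT, most of the members called in limma were U2 genes, but most of those called in DESeq2 were not. Of 45 tested members, 10 were called higher and 2 lower, beside 13.1% of all tested genes called higher and 11.3% called lower, and the median log2 fold change was 0.06. Of the 10, 7 belong to the U2 snRNP: SNRPA1, SF3A1, SF3A2, SF3A3, SF3B4, SF3B5 and SF3B6. The others were LSM7, SNRPD2 and PRPF8, and no U1 member was called. These directions depend on the scaling. On the deposited scale, where the values are used as the authors scaled them, the median over all tested genes was -0.51 instead of 0.00, 0 members were higher and 26 were lower, beside 2.59% of all tested genes called higher and 49.3% called lower there, and the members' median was -0.475. On that scale all 10 lost their call, and 7 of them had values below 0: SF3A1, SF3A2, SF3A3, SF3B4, SF3B5, SF3B6 and PRPF8. DESeq2 kept 5 of the 10 higher calls and 0 of the 2 lower ones. The higher calls kept were SNRPA1, SF3B5, LSM7, SNRPD2 and PRPF8. Those lost, SF3A1, SF3A2, SF3A3, SF3B4 and SF3B6, were all U2 genes. Of 7610 genes with an adjusted p it called 500 higher and 389 lower, against 1271 and 1092 of 9673 in limma. Exons held 60.8% of the tags in Zab libraries, against 70.9% in WT libraries. The MYC mRNA in Zab cells was 2.51-fold that in WT cells. Their part in these differences was not tested.

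LSM7 had 144 and 149 CPM in Zab libraries, against 97.2 and 84.8 in WT, and was 1.60-fold higher (log2 0.68 ± 0.13, limma adjusted p = 2.3e-05). SNRPA1 had 166 and 146 CPM in Zab, against 107 and 93.8 in WT, and was 1.54-fold higher (log2 0.62 ± 0.12, limma adjusted p = 1.5e-05). SNRPD2 had 986 and 991 CPM in Zab, against 650 and 681 in WT, and was 1.48-fold higher (log2 0.57 ± 0.05, limma adjusted p = 3.9e-14). In each of these 3 genes both Zab libraries lay above both WT libraries. The remaining U2 rises were 1.24-fold to 1.43-fold, and 5 of them were lost when 1 library was left out. SF3A1 was lost without Zab replicate 1 (limma adjusted p = 0.054), SF3A2 without Zab replicate 1 or WT replicate 1 (0.09 and 0.36), and SF3A3 without Zab replicate 1 or WT replicate 2 (0.15 and 0.15). SF3B4 was lost without Zab replicate 2 or WT replicate 1 (limma adjusted p = 0.37 and 0.15), and SF3B6 without any of the MYC, Zab or WT libraries other than WT replicate 2 (0.06 to 0.39).

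LSM4 and SF3B1 were lower in Zab. LSM4, a subunit of both LSm rings, had 123 and 123 CPM in Zab, against 181 and 173 in WT, and was 1.43-fold lower (log2 -0.51 ± 0.13, limma adjusted p = 0.0011). SF3B1 had 128 and 143 CPM in Zab, against 170 and 200 in WT, and was 1.36-fold lower (log2 -0.44 ± 0.12, limma adjusted p = 0.003). Both Zab libraries lay below both WT libraries for each gene. Both genes were also lower on the deposited scale, where 49.3% of all tested genes were called lower. That scale moves values down in Zab against WT, so it is no separate check of these calls. The SF3B1 call was lost without Zab replicate 1 or WT replicate 2 (limma adjusted p = 0.056 and 0.11). After TMM scaling SF3B1 was therefore the U2 gene that moved against the other called genes of its complex. This contrast depends on the scaling. On the deposited scale SF3A1, SF3A2, SF3A3, SF3B4, SF3B5 and SF3B6 were below 0 too. Among the Sm genes, SNRPB had 475 and 403 CPM in Zab, against 392 and 444 in WT, and SNRPN had 174 and 157, against 170 and 219. PRPF40B had 48.1 and 43.5 CPM in Zab, against 43.5 and 37.1 in WT. None of these 3 genes was called. SNRPA, with a log2 fold change of -0.30, was called lower without Zab replicate 1 or WT replicate 1 (limma adjusted p = 0.029 and 0.02).

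Zab+MYC and MYC cells both overexpress MYC and differ in Zab. In Zab+MYC against MYC, 1 of 45 tested members was called higher, 9 were called lower and 35 were not called, beside 11.8% of all tested genes called higher and 8.14% called lower, with a median log2 fold change of -0.22. The 9 were SNRPB, SNRPD1, PRPF39, SNRPA1, SF3A3, SF3B5, PRPF38B, PRPF4 and LSM4. On the deposited scale 29 members were lower and 1 higher, beside 30.5% of all tested genes called lower and 5.94% called higher there, with a median over all tested genes of -0.31. The MYC mRNA itself fell 1.79-fold in Zab+MYC cells relative to MYC cells, and its part in these differences was not tested. SNRPD1 had 78.8 and 64.5 CPM in Zab+MYC, against 128 and 128 in MYC, and was 1.78-fold lower (log2 -0.83 ± 0.18, limma adjusted p = 0.00023). PRPF39, a relative of a yeast U1 protein, had 48.7 and 33.3 CPM in Zab+MYC, against 67.7 and 60.7 in MYC, and was 1.56-fold lower (log2 -0.64 ± 0.21, limma adjusted p = 0.022). PRPF38B had 104 and 95.0 CPM in Zab+MYC, against 146 and 166 in MYC, and was 1.55-fold lower (log2 -0.64 ± 0.17, limma adjusted p = 0.0046). The Zab+MYC libraries lay below the MYC libraries in all 3 genes, and the SNRPD1 call held whichever library was left out. DESeq2 kept 5 of the 9 lower calls and the 1 higher call, while edgeR called 14 lower. Over all genes DESeq2 called 367 of 5922 with an adjusted p lower, edgeR 1299 of 9673 and limma 787 of 9673.

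Leaving out 1 library removed 5 of the 9 lower calls. PRPF39 was lost without MYC replicate 1 or Zab+MYC replicate 2 (limma adjusted p = 0.14 and 0.29), LSM4 without the same libraries (0.092 and 0.28) and SF3B5 without the same libraries (0.06 and 0.12). PRPF38B was lost without MYC replicate 2 or Zab+MYC replicate 2 (limma adjusted p = 0.083 and 0.062), and PRPF4 without MYC replicate 1 or Zab+MYC replicate 1 (0.078 and 0.12). PRPF40B was the 1 member higher. It had 31.6 and 33.3 CPM in Zab+MYC, against 13.1 and 9.91 in MYC, and was 2.57-fold higher (log2 1.36 ± 0.27, limma adjusted p = 6.3e-05). Its Zab+MYC libraries were well above its MYC libraries, and FMNL3, on the other strand, was higher too (log2 0.91, limma adjusted p = 0.0011). SNRPN, the other gene that was lower in MYC, had 105 and 118 CPM in Zab+MYC and 81.3 and 106 in MYC, and was not called (log2 0.25, limma adjusted p = 0.2). Leaving out 1 library added calls for 3 members. PRPF38A was lower without Zab+MYC replicate 1 (limma adjusted p = 0.032), PRPF8 without Zab replicate 1 or Zab+MYC replicate 2 (0.031 and 0.009), and SF3B6 without Zab replicate 1 or either WT library (0.029 to 0.049).

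In Zab+MYC against Zab, 13 members were called higher and 2 lower, with a median log2 fold change of 0.23. Of all tested genes, 14.3% were called higher and 12.5% lower. These genotypes differed in more than MYC. ADAR mRNA stood at 6003 and 6198 CPM in Zab libraries and at 1068 and 1018 in Zab+MYC (log2 -2.55, limma adjusted p = 7.6e-49). The part of ADAR in the calls was not tested. This comparison shares no library with MYC against WT. All 13 were also called higher in MYC against WT: SNRPB, SNRPD2, SNRPD3, SNRPF, SNRPG, SNRPC, SNRPA1, SNRPB2, SF3A3, SF3B2, PRPF38B, PRPF4 and LSM10. The same overlap was not computed over all tested genes, so it cannot be read as particular to the members. DESeq2 kept 5 of the 13 and neither lower call. Of 7797 genes with an adjusted p it called 513 higher and 413 lower, against 1385 and 1207 of 9673 in limma. SNRPF had 22.4 and 23.4 CPM in Zab+MYC, against 9.32 and 9.18 in Zab, and was 2.21-fold higher (log2 1.14 ± 0.35, limma adjusted p = 0.0097). PRPF38B had 104 and 95.0 CPM in Zab+MYC, against 54.5 and 37.3 in Zab, and was 2.15-fold higher (log2 1.11 ± 0.17, limma adjusted p = 3.8e-07). PRPF4 had 145 and 164 CPM in Zab+MYC, against 95.4 and 73.4 in Zab, and was 1.82-fold higher (log2 0.87 ± 0.14, limma adjusted p = 8.2e-07). All 3 had both Zab+MYC libraries above both Zab libraries, but SNRPF was lost without Zab+MYC replicate 1 or Zab+MYC replicate 2 (limma adjusted p = 0.053 and 0.074). Of the other calls, SNRPA1 was lost without Zab replicate 2, SNRPD2 without Zab+MYC replicate 2, and SNRPD3 without Zab replicate 1 or Zab+MYC replicate 1 (limma adjusted p 0.052 to 0.066). SNRPG was lost without any 1 Zab or Zab+MYC library (limma adjusted p 0.068 to 0.19), and SF3B2 without Zab replicate 2 or either Zab+MYC library (0.06 to 0.16). PRPF8 was called higher without Zab+MYC replicate 1 (limma adjusted p = 0.0096).

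SNRPN was lower again, with 105 and 118 CPM in Zab+MYC, against 174 and 157 in Zab, a 1.48-fold difference (log2 -0.57 ± 0.14, limma adjusted p = 0.00094). LSM11, the U7 protein, had 11.7 and 5.67 CPM in Zab+MYC, against 20.8 and 18.4 in Zab, and was 2.10-fold lower (log2 -1.07 ± 0.40, limma adjusted p = 0.038). SNRPN libraries of the 2 genotypes were well apart, while the LSM11 call rests on 16 tags in Zab+MYC and was lost without either Zab library or without Zab+MYC replicate 2 (limma adjusted p = 0.15, 0.085 and 0.41). LSM10, its partner in the U7 ring, had 135 and 114 CPM in Zab+MYC, against 73.2 and 82.0 in Zab, and was 1.59-fold higher (log2 0.67, limma adjusted p = 0.00045). PRPF40B had 31.6 and 33.3 CPM in Zab+MYC, against 48.1 and 43.5 in Zab, and was not called (log2 -0.47, limma adjusted p = 0.19).

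The effect of MYC differed with and without Zab for 12 members, tested as the log2 change in Zab+MYC against Zab minus that in MYC against WT. Of 45 tested members, 1 was called higher and 11 lower, beside 14.6% of all tested genes called higher and 13.3% called lower. The 11 were all higher in MYC against WT, and 5 of them belong to the U2 snRNP. Of the 11, 8 were also called higher in Zab against WT: LSM7, PRPF8, SF3A1, SF3A3, SF3B5, SF3B6, SNRPA1 and SNRPD2. Their higher level in Zab on this scale enters the difference. LSM7, PRPF8, SF3A1, SF3B6 and SNRPD2 were not called in Zab+MYC against MYC. The members' median MYC effect was 0.23 with Zab and 0.45 without it, and the effect was of smaller size with Zab for 33 of the 45 and of the same sign for 34. Such counts were not made over all tested genes, so they cannot be read as particular to the members. Over all tested genes MYC gave 14.3% higher and 12.5% lower calls with Zab, against 27.8% and 30.4% without it. The test of the difference uses all 8 libraries, so it shares them with each comparison above. DESeq2 kept 7 of the 11 lower calls and not the 1 higher call. Of 8172 genes with an adjusted p it called 501 higher and 617 lower, against 1408 and 1287 of 9673 in limma. MYC mRNA rose 3.32-fold in Zab+MYC against Zab and 14.9-fold in MYC against WT, and the part of this in the smaller effects was not tested. The log2 change of ADAR mRNA was -2.55 in the first of these comparisons and -0.16 in the second. The Zab setting was therefore not held equal in ADAR, and the part of this was not tested either.

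Among the U2 genes, SNRPA1 had 212 and 208 CPM in Zab+MYC and 166 and 146 in Zab, a log2 MYC effect of 0.42 with Zab against 1.52 without it (difference -1.10 ± 0.16, limma adjusted p = 1.2e-07). SF3B5 had 195 and 170 CPM in Zab+MYC and 182 and 185 in Zab, an effect of -0.01 against 0.88 (difference -0.89 ± 0.16, limma adjusted p = 1.1e-05). SF3A3 had 243 and 230 CPM in Zab+MYC and 187 and 174 in Zab, an effect of 0.38 against 1.18 (difference -0.79 ± 0.15, limma adjusted p = 1.9e-05). With Zab present, SNRPA1 and SF3A3 still rose with MYC, and SF3B5 overlapped between the 2 genotypes. SF3B6 had 98.8 and 95.0 CPM in Zab+MYC and 103 and 109 in Zab (difference -0.78, limma adjusted p = 0.0032), and SF3A1 had 226 and 238 in Zab+MYC and 246 and 227 in Zab (difference -0.57, limma adjusted p = 0.0016). LSM7 had 163 and 155 CPM in Zab+MYC and 144 and 149 in Zab, an effect of 0.11 against 1.03 (difference -0.92 ± 0.18, limma adjusted p = 4.8e-05).

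In the Sm ring, SNRPD1 had 78.8 and 64.5 CPM in Zab+MYC and 57.4 and 56.3 in Zab, an effect of 0.32 against 1.20 without Zab (difference -0.88 ± 0.25, limma adjusted p = 0.0042). SNRPD2 had 1109 and 1145 CPM in Zab+MYC and 986 and 991 in Zab, an effect of 0.19 against 0.82 (difference -0.63 ± 0.08, limma adjusted p = 3.3e-10). SNRPB had 761 and 785 CPM in Zab+MYC and 475 and 403 in Zab, an effect of 0.82 against 1.16 (difference -0.34 ± 0.10, limma adjusted p = 0.0061). For SNRPB most of the MYC effect was thus present with Zab, and the call was lost without Zab replicate 1 or WT replicate 1 (limma adjusted p = 0.052 and 0.058). PRPF8 had 420 and 505 CPM in Zab+MYC and 392 and 417 in Zab (difference -0.54, limma adjusted p = 0.00013). PRPF4 had a difference of -0.57 (limma adjusted p = 0.024), lost without MYC replicate 1, Zab replicate 1, Zab+MYC replicate 1 or WT replicate 2 (0.065 to 0.15). PRPF40B was the 1 member with a difference above 0 that was called (1.19 ± 0.38, limma adjusted p = 0.012), lost without MYC replicate 2 or WT replicate 1 (limma adjusted p = 0.07 and 0.062).

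**Figure D4:**
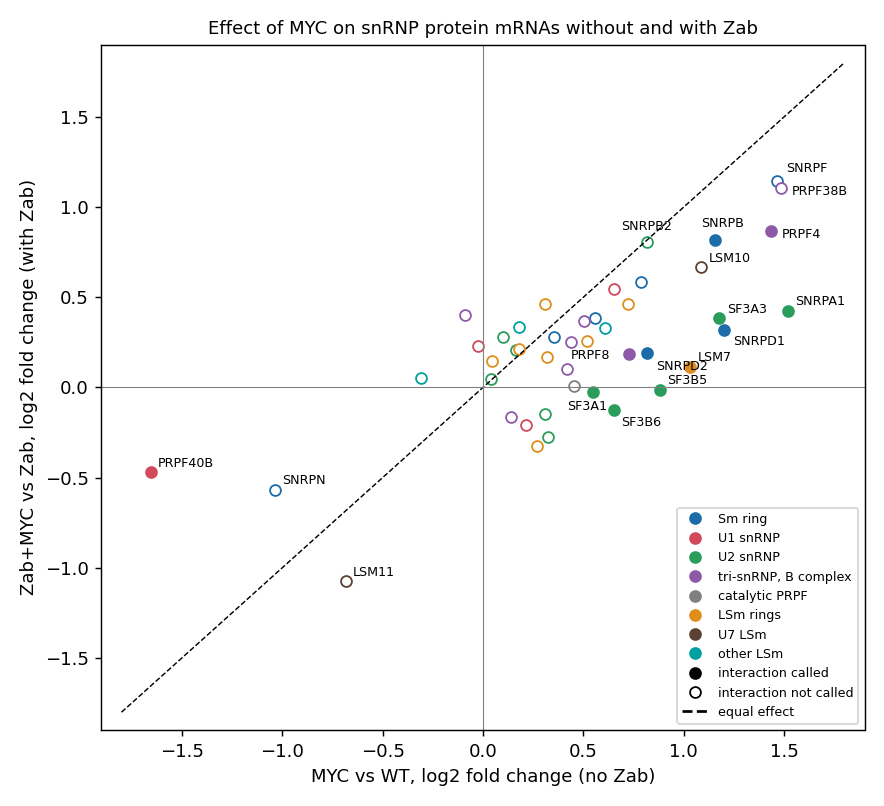
Log2 fold change of each tested member in MYC against WT (x axis) and in Zab+MYC against Zab (y axis), coloured by complex, with filled points where the 2 effects differed by limma's test and a dashed line where they are equal. Most points right of 0 lie under the line, SNRPA1 at 1.52 and 0.42 among them, and SNRPB2 lies close to it at 0.81 and 0.81.

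The other 11 members called higher in MYC against WT showed no called difference between the 2 MYC effects. SNRPB2 had 63.7 and 57.4 CPM in Zab+MYC and 35.1 and 32.4 in Zab, an effect of 0.81 with Zab and 0.81 without it. The standard error of its difference was 0.30. SNRPF, PRPF38B, SNRPC, SNRPD3, SNRPG and LSM10 had differences between -0.11 and -0.42, and that of PRPF38B was called without Zab replicate 2 (difference -0.66, limma adjusted p = 0.04). SNRPN, lower in both MYC comparisons, had a difference of 0.47 (limma adjusted p = 0.061), called without MYC replicate 2 or WT replicate 1 (limma adjusted p = 0.024 and 0.02). Differences below 0 were also called for PRPF31 and SF3A2 without WT replicate 2 (limma adjusted p = 0.038 and 0.022) and for SF3B4 without Zab replicate 1 (0.0088). These values do not show that MYC acted alike in both settings.

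Other genes of splicing were read from lists of partners that hold no member, to be read beside the 27.8% of all tested genes called higher and the 30.4% called lower in MYC against WT. Of 35 tested proteins of the snRNPs and tri-snRNP outside the symbol families, 23 were higher and 0 lower in MYC against WT, with a median log2 fold change of 0.58. SNU13, which starts assembly of U4 snRNP, was 4-fold higher with 1206 and 1240 CPM in MYC, against 314 and 295 in WT, and U2AF1, which reads the end of the intron, was 2.99-fold higher. Of 27 tested genes of snRNP assembly and import, which load the Sm ring onto RNA, 19 were higher and 1 lower, with a median of 0.74. GEMIN5, which picks out snRNAs for assembly, was 3.49-fold higher and RIOK1, a partner of the PRMT5 methylase, 2.98-fold higher, while SNUPN, an import adaptor for snRNPs, was 1.27-fold lower. Of 30 genes of the Prp19 complex and the catalytic spliceosome, 9 were higher, a share near that of all tested genes, and 1 was lower, with a median of 0.33, CWC25 being 2.01-fold and CWC27 1.91-fold higher and XAB2 1.24-fold lower.

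Of 18 tested SR proteins and their kinases, which guide splice site choice, 9 were higher and 3 lower, with a median of 0.34. The kinases CLK1 and SRPK1 were 2.49-fold and 2.48-fold higher, and SRSF5 and CLK2 2.46-fold and 1.87-fold lower. Of 8 cytoplasmic partners of the decay ring, 2 were higher, also near the share of all tested genes, and 1 was lower, with DCP1A 1.63-fold and EDC4 1.48-fold higher and DCP1B, a decapping cofactor, 1.96-fold lower. Of 8 partners of the U7 snRNP in histone mRNA processing, 3 were higher and 0 lower, with ZNF473 2.48-fold and CSTF2 2.26-fold higher. In Zab against WT these 6 lists had 5, 4, 2, 1, 2 and 0 members higher and 0, 0, 1, 1, 0 and 1 lower, in the order given, beside 13.1% of all tested genes called higher and 11.3% called lower. In Zab+MYC against MYC they had 0, 0, 0, 0, 1 and 0 higher and 9, 8, 3, 2, 0 and 0 lower, beside 11.8% of all tested genes called higher and 8.14% called lower.

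Promoters of members were searched for CACGTG, the sequence known as the E-box that MYC binds with its partner MAX, and for CGCGCG, a CG-rich run taken as a comparison. Both motifs read the same on both strands and share no letters where they meet. The sequences are RefSeq promoters of build GRCh38.p14, from 250 bases before to 50 after the gene start, and 38 of the 46 members matched. CACGTG was found in 1 of the 38, SF3B1, and in 0 of the 20 matched members that were higher in MYC against WT, while 10.8% of the 7889 promoters of tested genes and 7.26% of all 35116 promoters held it. CGCGCG was found in 11 of the 38 and in 7 of the 20, that is 28.9% and 35% of them, and in 29.8% of the promoters of tested genes. The 3 promoters below are shown because they belong to the member with the largest rise, to the SmB gene and to the gene with the E-box. Each is given over the 250 bases before the start, 5′ to 3′ along the gene, with either motif in capitals.
SNRPA1, minus strand, chr15:101295249-101295498: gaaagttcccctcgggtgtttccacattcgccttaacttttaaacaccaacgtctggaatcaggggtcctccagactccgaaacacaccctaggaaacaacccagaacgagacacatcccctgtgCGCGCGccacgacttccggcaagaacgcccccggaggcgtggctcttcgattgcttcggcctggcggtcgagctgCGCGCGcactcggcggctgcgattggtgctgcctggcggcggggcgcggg
SNRPB, minus strand, chr20:2470790-2471039: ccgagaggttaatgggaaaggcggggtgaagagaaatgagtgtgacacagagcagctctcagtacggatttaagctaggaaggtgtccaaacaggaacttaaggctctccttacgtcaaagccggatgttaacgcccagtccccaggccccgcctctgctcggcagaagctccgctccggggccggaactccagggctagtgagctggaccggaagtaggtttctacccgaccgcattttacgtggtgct
SF3B1, minus strand, chr2:197435029-197435278: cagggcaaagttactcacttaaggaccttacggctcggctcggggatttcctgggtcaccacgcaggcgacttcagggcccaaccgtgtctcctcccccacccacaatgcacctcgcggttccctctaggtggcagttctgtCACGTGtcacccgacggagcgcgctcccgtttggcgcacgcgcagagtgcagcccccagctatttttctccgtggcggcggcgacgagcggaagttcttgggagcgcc
The SNRPA1 promoter holds CGCGCG at 2 places and no CACGTG, the SNRPB promoter neither, and the SF3B1 promoter 1 CACGTG whose first base lies 108 bases before the start. A match is a description of letters, and its absence from this window says nothing of MYC binding.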

How the data were processed

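RNA-seq libraries were made from total RNA of U2OS cells, 2 per genotype, and grouped by the genotype label. The submitters' processing notes list Trim Galore 0.6.6, STAR, HOMER 4.11.1 and the builds hg19 and dm6, with no role given. Per the file headers, HOMER was run on exons of coding genes of the hg19 RefSeq annotation, with a single transcript chosen for each gene. The transcript differed between libraries for 50.6% of genes, and was the same in all 8 for 37 of 46 members. The authors deposited a scaled signal and not counts: in each library 100% of values were whole multiples of 1 step (tolerance 0.1), and folder names in the headers mention a spike-in. Tags were recovered by taking 2 steps as 1 tag, since 1 step per tag would give more exon tags than the header total.

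Recovered tags were filtered with edgeR's filterByExpr (9673 of 19414 genes kept), scaled by TMM over those genes and tested as log2(CPM + 2) with limma 3.58.1 with a mean-variance trend, on all 8 libraries with 4 residual degrees of freedom. TMM was first computed over all genes with a tag; it was moved to the filtered genes after the counts of all called genes had been seen, to follow an earlier description of these data. Tests were two-sided with Benjamini-Hochberg adjustment over all genes tested, and the test was checked on simulated data. Genes given with library values were the 3 largest called changes of each complex in MYC against WT, those called in the interaction, the 3 largest calls in each direction elsewhere, all called lower in MYC, and the related pairs with both genes reported. Of partner lists, the 2 largest called changes in each direction in MYC against WT are named. Of 47 genes that match the symbol rule, 1 stayed in the fit over all genes and is not reported here. The members, lists and rules were chosen with earlier results of these data known. The other members, the overlapping genes and the promoter motifs were chosen after the values had been seen. Alternatives were edgeR 4.0.16 and DESeq2 1.42.0 on rounded tags, other pseudocounts, scalings and filters, a replicate block and leaving out each library. Of the 46 members, 13 have pseudogenes named after them in GENCODE and 6 overlap another coding gene, and reads shared with such copies could be counted for either.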

Additional observations from a re-analysis of the deposited data

Results flagged for a closer look

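The difference between the MYC effect with Zab and the MYC effect without it passed limma's test (adjusted over all genes tested) for 12 members, on the log2 scale. The values below 0 were SNRPA1 at -1.095, LSM7 at -0.9187, SF3B5 at -0.8931, SNRPD1 at -0.8845, SF3A3 at -0.7931, SF3B6 at -0.7781, SNRPD2 at -0.6294, SF3A1 at -0.572, PRPF4 at -0.5657, PRPF8 at -0.5394 and SNRPB at -0.3394. The value above 0 was PRPF40B at 1.185, in a gene that had 14 and 12.5 tags in the MYC libraries.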

How the results depend on the processing

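Of 4632 values of single members under the alternatives, 4390 stayed on the same side of the threshold. Values that changed sign without a call in either setting are counted among these. On the deposited scale, limma called 0 members higher (0 at an unadjusted p under 0.05) and 26 lower in Zab against WT. It called 29 lower in Zab+MYC against MYC, 19 higher and 1 lower in Zab+MYC against Zab, and 2 higher and 8 lower in the interaction. Of all tested genes on that scale, 22.3% were higher and 8.09% lower in Zab+MYC against Zab, and 21.3% and 8.57% in the interaction. Among members called in Zab against WT on the main or the deposited scale, 15 turned below 0 on the deposited scale: LSM10 -0.367, PRPF31 -0.4427, PRPF4 -0.4253, PRPF8 -0.1831, SF3A1 -0.1515, SF3A2 -0.06522, SF3A3 -0.2235, SF3B3 -0.4163, SF3B4 -0.008802, SF3B5 -0.02897, SF3B6 -0.1376, SNRPB -0.4747, SNRPC -0.3246, SNRPD1 -0.4692 and SNRPG -0.459. Members that changed sign without a call on either scale are not listed. DESeq2 called 5 higher and 0 lower (2 at an unadjusted p under 0.05) in Zab against WT, 5 lower in Zab+MYC against MYC, 5 higher and 0 lower (1 unadjusted) in Zab+MYC against Zab, and 0 higher (1 unadjusted) and 7 lower in the interaction. It also called fewer of all genes than limma, as given with each comparison above. Members counted on the same transcript in all libraries are fewer by construction, 36 tested. SNRPN and PRPF40B are not among them, so the 0 lower in MYC against WT and the 0 higher in Zab+MYC against MYC and in the interaction follow from which genes were left. Of them limma called 15 higher and 0 lower (0 unadjusted) in MYC against WT, 0 higher (1 unadjusted) and 6 lower in Zab+MYC against MYC, 7 higher and 1 lower in Zab+MYC against Zab, and 0 higher (0 unadjusted) in the interaction. With edgeR, and with no filter, 1 was lower in Zab+MYC against Zab. EdgeR called 14 lower in Zab+MYC against MYC, where it called 1299 of all 9673 genes lower, against 787 in limma. Scaling by library totals gave 2 higher in the interaction. The cause of these changes was not tested, beyond the number tested on the same transcript.

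TMM over all genes with a tag, the scaling run first, gave 25 higher and 2 lower in MYC against WT, 10 and 2 in Zab against WT, 1 and 10 for Zab+MYC relative to MYC, 13 and 2 for Zab+MYC relative to Zab, and 1 and 12 in the interaction. Leaving out each library gave 19 to 25 higher and 2 to 3 lower in MYC against WT, 6 to 10 and 1 to 3 in Zab against WT, 1 and 5 to 11 for Zab+MYC relative to MYC, 9 to 13 and 1 to 2 for Zab+MYC relative to Zab, and 1 and 10 to 12 in the interaction. The member called higher in the interaction was not always the same. Without MYC replicate 2 or WT replicate 1 it was SNRPN and not PRPF40B. Libraries with the same number did not deviate together (correlations -0.029 to 0.013 over 4036 genes), so the numbers do not pair them. A replicate block gave 2 higher in the interaction. Depth limits the members at few tags, such as PRPF18, LSM11 and SNRPF, and 2 libraries per genotype cannot show the spread between cultures.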
